A study of Drosophila melanogaster with 2 samples.

Results

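The genes considered were 10 basement membrane and matrix genes, of 13968 annotated protein-coding genes, taken as a fixed list by name: 4 laminin subunits (LanA, LanB1, LanB2 and wb), the collagen IV chains Col4a1 and vkg, nidogen (Ndg) and perlecan (trol), and the matrix metalloproteinases Mmp1 and Mmp2. The data were peak lists from chromatin immunoprecipitation with sequencing of Drosophila melanogaster embryos. The embryos carried a stable transgene for Twist with GFP at its C-terminus, and an antibody against GFP was used. Whole embryos of both sexes, aged 2 to 12 h, gave 2 biological replicates of 1 group, which is the only group here. Twist is a basic helix-loop-helix factor that specifies the early mesoderm. Since whole embryos were used, a peak cannot be assigned to a tissue, and the age range spans several stages.

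A basement membrane is a thin sheet of matrix beneath epithelia and around muscle, fat body and nerve cord. Laminin trimers of an alpha, a beta and a gamma chain form the first network on the cell surface. Collagen IV forms the other network, nidogen links the networks, and perlecan carries heparan sulfate chains that hold growth factors. In the fly embryo, haemocytes and the fat body, both of mesodermal origin, make much of this matrix, and muscles attach to it through integrins. The metalloproteinases cut matrix proteins during tissue remodelling. Twist binds E-boxes, sites of the form CANNTG, and the types CATATG and CACATG are the ones known best for it.

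The sites that the results turn on are the strongest peaks of the structural genes. For 6 genes the 101 bp centred on the summit of the strongest peak are shown, and these 6 windows met no annotated UTR. The windows of Ndg, Mmp1 and Mmp2 are not printed, and their absence does not mean that they met a UTR. All are read on the plus strand of the dm6 assembly from RefSeq's copy, and capitals mark every CANNTG. They lie at chr2L:14265288-14265388 (wb), chr2L:7812915-7813015 (LanB1), chr3L:6217281-6217381 (LanA), chr3L:9616927-9617027 (LanB2), chrX:2542421-2542521 (trol) and chr2L:5022769-5022869 (vkg). The last is also the strongest peak in the window of Col4a1.
wb: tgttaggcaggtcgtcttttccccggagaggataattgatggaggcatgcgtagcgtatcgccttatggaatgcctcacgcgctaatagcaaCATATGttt
LanB1: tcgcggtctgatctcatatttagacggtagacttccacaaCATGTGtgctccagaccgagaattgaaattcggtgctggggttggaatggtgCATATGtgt
LanA: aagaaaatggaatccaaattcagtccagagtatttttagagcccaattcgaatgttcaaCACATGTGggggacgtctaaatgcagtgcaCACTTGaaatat
LanB2: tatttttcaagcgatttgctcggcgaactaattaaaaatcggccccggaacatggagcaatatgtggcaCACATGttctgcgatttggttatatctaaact
trol: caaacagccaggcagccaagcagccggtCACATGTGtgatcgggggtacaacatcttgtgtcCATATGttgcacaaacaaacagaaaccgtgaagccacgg
vkg: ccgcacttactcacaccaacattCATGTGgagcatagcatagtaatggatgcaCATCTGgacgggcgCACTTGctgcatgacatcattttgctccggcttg
Each of the 6 windows held CATATG or CACATG, with CACATG written CATGTG where it is on the other strand. Of the 9 distinct strongest peaks of all the listed genes, 7 held one, and those of Mmp1 and Mmp2 did not. Of all summits in the list these peaks come from, 28.2% held one, and of its 1000 strongest, 40.6%. The windows of LanA and trol each held the run CACATGTG, in which CACATG on both strands overlaps, so a pair of matches there is 1 stretch of sequence.

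The laminin, nidogen and perlecan genes each carried a strong peak inside the gene near its start, the collagen IV pair carried a weaker one deep in vkg, and the protease genes carried only weak peaks. Peaks were ranked within each list by the authors' signal value, 1 being the highest, because the scale of that value is not stated. The authors kept 6516 peaks by irreproducible discovery rate (IDR), a measure of how well replicates rank the same peaks, while the pooled list and each replicate list hold 30000. The IDR list is the top of the pooled list, so an IDR rank is also a pooled rank. A summit was counted for every gene whose body or the 10 kb on either side held it, so a summit may belong to a neighbour. All 10 genes had an IDR summit by this count, against 63.7% of all protein-coding genes, a background so high that the window count separates the genes little. Inside the gene body 8 of 10 had one, all but Col4a1 and Mmp1, against 13.2% of protein-coding genes. Longer genes have more room: of the 7 members of 5 to 20 kb, 5 had a summit in the body against 29.7% of genes of that length, and all 7 had one in the window against 72.9%. Each of the 3 members over 20 kb had one in the body and in the window, against 54.1% and 75.5%. With 1 group and no control group there was nothing to test, so these are descriptions.

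**Figure D1:**
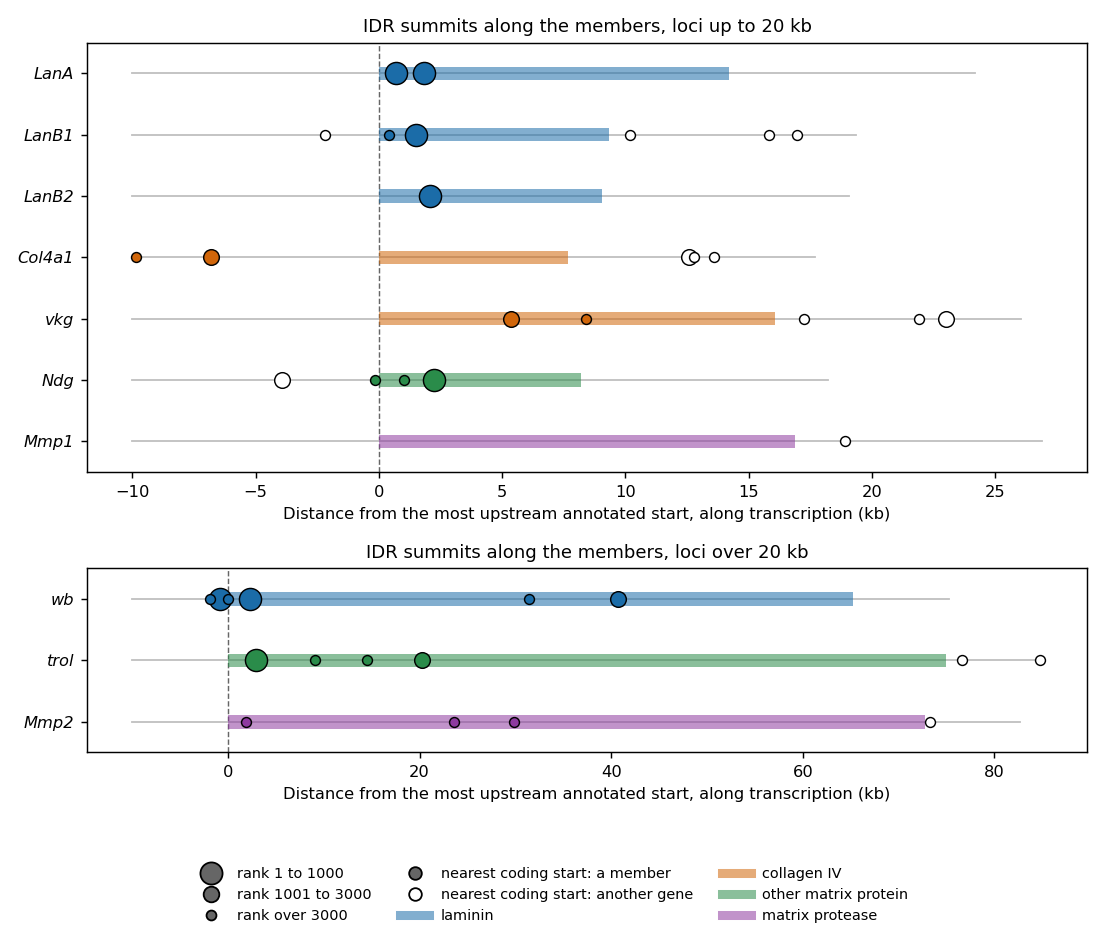
IDR summits in the gene body (bar) and within 10 kb, by distance in kb from the most upstream annotated start along transcription. Circle size gives the rank class, and open circles have their nearest coding start in a gene outside the list. The largest circles, ranks 1 to 1000, lie within the first 3 kb of wb, LanA, LanB1, LanB2, Ndg and trol or just upstream of wb.

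Among the laminins, wb, an alpha chain, had the strongest peak of all 10 genes. The gene lies on 2L from 14263027 to 14328262, and its main peak (14264770 to 14265700) ranked 52 in the IDR list, 66 in replicate 1 and 49 in replicate 2. The summit was in the first intron of both transcripts that span it, 2311 bp downstream of the start. A further summit lay 859 bp upstream of the start at IDR rank 837, 872 in replicate 1 and 755 in replicate 2, with a CACATG over the summit itself. The remaining 4 summits ranked 2509 to 6422, one of them 2714 bp downstream of the internal start and one 19 bp from the upstream start. The locus held 42 pooled summits, of which 20 had a counterpart within 100 bp in both replicates. Among the 6516 strongest peaks of replicate 1 alone, without replicate 2, the window held 3 summits in place of 6.

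LanB1, the beta chain, followed closely. It lies on 2L from 7811438 to 7820771, and its main peak (7812534 to 7813327) ranked 74 in the IDR list, 95 in replicate 1 and 55 in replicate 2. The summit was 1527 bp downstream of the upstream start, in the first intron of the transcript that spans it, and 1389 bp before an internal start. A second summit 397 bp from the start ranked 3692, with 5829 in replicate 1 and 2631 in replicate 2, so the replicates placed it at unlike depths of their lists. The other 4 IDR summits in the window were nearest to starts of Cdc14, CG7115, Rack1 and mts, at ranks 3113 to 5138, and 2 of them lay within 500 bp of those starts. Without these, 2 of the 6 summits counted for LanB1 are nearest to its own starts.

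LanA, the other alpha chain, had 2 IDR summits, both in introns and both high. It lies on 3L from 6203831 to 6218022, on the minus strand. The first, 691 bp downstream of its only start and in the first intron, ranked 201 (257 in replicate 1 and 162 in replicate 2). The second, 1813 bp downstream, ranked 771 (870 in replicate 1 and 636 in replicate 2). LanB2, the gamma chain (3L, 9614914 to 9623980), had 1 IDR summit, at rank 701, with 827 in replicate 1 and 607 in replicate 2. It lay 1017 bp downstream of the nearer of its starts, in the first intron of both transcripts. Without replicate 2 its window held 2 summits in place of 1. Thus every gene for a chain of the embryo's laminins had a peak among the first 1000 IDR peaks inside its body, and no neighbour had a nearer start to any of these.

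The collagen IV genes differed from the laminins in where their peaks lay. Col4a1 (2L, 5029609 to 5037279) and vkg (2L, 5012144 to 5028191) are transcribed away from each other with 1417 bp between them. No IDR summit lay in that shared stretch. The pooled list had 1 summit there, at rank 16886, replicate 1 had 2, the better at rank 14003, and replicate 2 had 0. Both windows shared the peak at 5022581 to 5023055, in an intron of vkg, 4626 bp downstream of the nearer vkg start, at rank 1372 (1717 in replicate 1 and 1115 in replicate 2). They also shared a vkg intron summit at rank 6069. Col4a1 itself held no IDR summit in its body, and the best pooled rank there was 12934.

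Most summits counted for the collagen IV pair were nearest to other genes. Of 8 distinct IDR summits, 2 were nearest to a start of vkg, 0 to one of Col4a1, and the other 6 to CG31650, Rtnl1 and SelT. The peak of CG31650 at 5042058 to 5042416 held 2 of these summits, at ranks 1792 and 5332. The strongest at Rtnl1, 247 bp from its start, ranked 1722. The pair had the densest windows of the classes, 1.77 IDR summits per 10 kb. Counting only the gene bodies, or only the nearest start, left 2 of these 8 summits. Without replicate 2 the pair had 5 distinct summits, 3 in the window of each gene.

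Ndg, the nidogen gene (2R, 10313891 to 10322104), resembled the laminins in where its strongest peak lay. Its main peak (10315753 to 10316346) ranked 389, with 461 in replicate 1 and 345 in replicate 2, and lay in the first intron of both transcripts, 2238 bp downstream of the only start. A CATATG was 15 bp from that summit. The other Ndg summits, 1021 bp downstream and 160 bp upstream of the start, ranked 3090 and 3309, and both stood nearer the top in replicate 2 (2068 and 2444) than in replicate 1 (4617 and 4289). The fourth summit in the window, at rank 1851, was 152 bp from the start of CG12909, ranked 1299 in replicate 1 and had no counterpart within 100 bp in replicate 2.

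In trol, the perlecan gene (X, 2470460 to 2545427, minus strand), 4 IDR summits lay in introns. The strongest (2542251 to 2542749) was 2956 bp downstream of the upstream start, at rank 740, with 769 in replicate 1 and 692 in replicate 2. It was not in the first intron of any of the 23 transcripts that span it. A non-coding RNA gene had a start nearer to it than those of trol, at 2314 bp. The intron summits at ranks 2614 and 4695 each held CACATG, and that at 5844 held no CANNTG. The nearest coding start of the other 2 summits in the window, at ranks 3025 and 4458, was that of boi, and the second lay 9343 bp from it. The window held 29 pooled summits, of which 14 had a counterpart in both replicates.

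The protease genes were at the low end. Mmp1 (2R, 24671294 to 24688184) had no IDR or pooled summit in its body. Its 1 IDR summit in the window, at rank 5494, lay 2016 bp past the gene end and 2 bp from the start of CG33228, ranked 8401 in replicate 2 and had no counterpart in replicate 1. With either replicate left out, the window of Mmp1 held 0 summits. In the body replicate 1 had 3 summits, the best at rank 16769, and replicate 2 had 0. Mmp2 (2R, 9611139 to 9683858) had 3 intron summits, at ranks 3647, 4154 and 5811. The first, 1898 bp downstream of the upstream start, ranked 4339 in replicate 1 and 3037 in replicate 2. None of the 3 held a CANNTG within 50 bp. The fourth, past the gene end at rank 6368, was nearest among coding genes to CG12926. Among the 3258 IDR peaks with the highest signal, the protease windows held 0 summits.

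**Figure D2:**
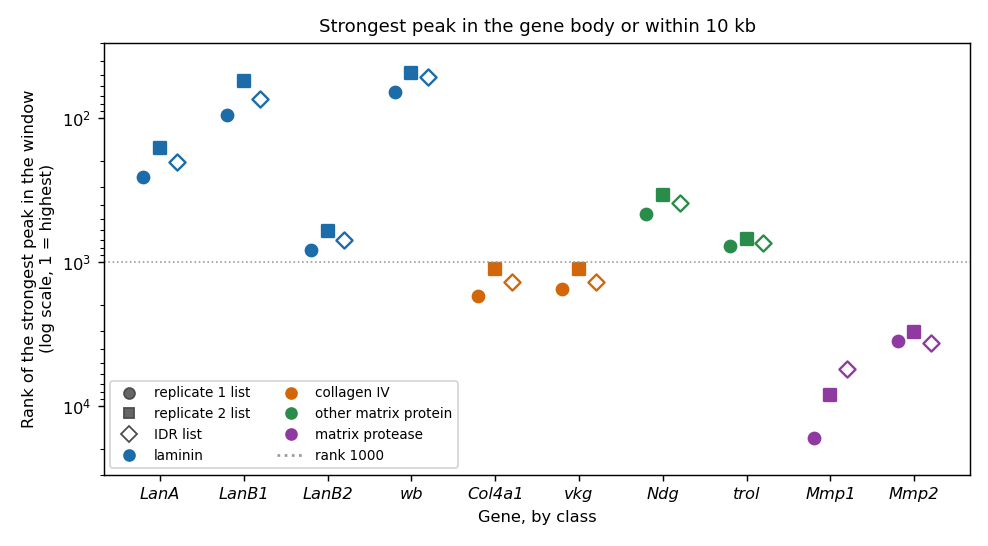
Rank of the strongest peak in the gene body or within 10 kb, on a log scale with 1 at the top, for each gene in replicate 1, replicate 2 and the IDR list. The laminins, Ndg and trol lie above the dotted line at rank 1000 in all 3 lists, from 49 to 827, and the collagen IV and protease genes lie below it.

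The laminins, nidogen and perlecan ranked above the other 4 genes in both replicates. Of the 10 genes, 6 had one of the first 1000 IDR peaks in the body, against 3.25% of protein-coding genes and 10.9% of those of 5 kb or more. The limit of 1000 was set after the ranks were seen. By the same count 1 of 29 other basement membrane genes had such a peak. This contrast depends on the gene body rule. Ppn, kon and scb had peaks at ranks 116, 195 and 917 nearest to their own starts but upstream of them. Some of the 29 are also shorter than 5 kb, such as Loxl1, at 1490 bp. An IDR summit 500 to 3000 bp downstream of an own start and inside the gene was found at 7 of 10 genes, these 6 and Mmp2, against 20.8% of protein-coding genes of 5 kb or more. That stretch, too, was chosen after the positions were seen.

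Over the 10 windows there were 38 distinct IDR summits and 162 pooled summits in 476 kb. This is 0.799 IDR summits per 10 kb, against 0.474 over the whole genome. The genome figure is over the full length of all chromosomes, 137548 kb, and not over windows around genes. The laminins had 15 (0.844 per 10 kb), the collagen IV pair 8 (1.77), nidogen and perlecan 10 (0.812) and the proteases 5 (0.386). Among starts of coding genes, 11 of the 15 at laminins were nearest to a laminin start, as were 7 of 10 at nidogen and perlecan to their own. So were 2 of 8 at the collagen IV pair and 3 of 5 at the proteases. Counting a summit only for the coding gene with the nearest start left 23 of 38. Of these 23, 16 lay in introns, 4 outside the gene and 3 within 500 bp of a start, at LanB1, wb and Ndg. Of the 15 summits nearest to other genes, 9 lay within 500 bp of that gene's start. The 23 leave these out, and the share of all IDR summits in introns was not computed. Counting any coding start and only summits ranked in both replicates, 10 lay within 500 bp of one and 26 farther. In the whole IDR list these counts were 2210 and 4008, so the listed genes were near its split.

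**Figure D3:**
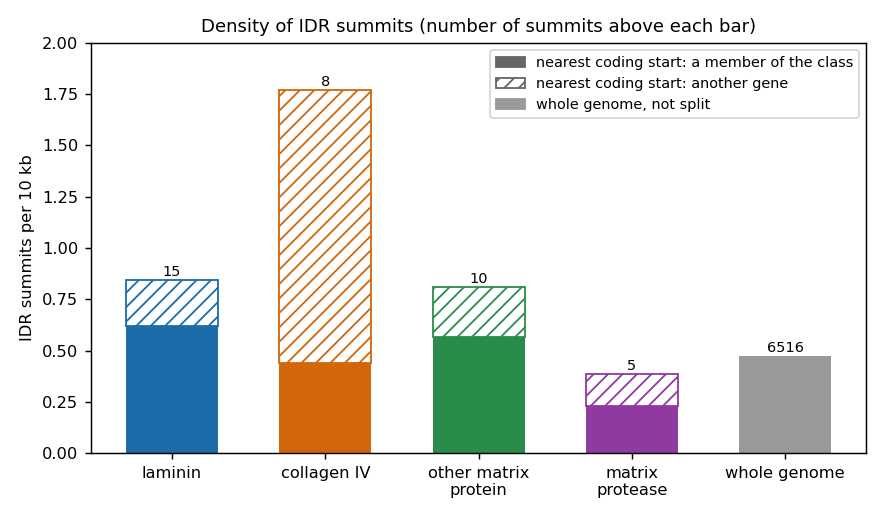
IDR summits per 10 kb of gene body with 10 kb on each side, by class, with the whole genome, over its full length, last. The number above each bar is the count of summits. The hatched part, summits whose nearest coding start is that of a gene outside the class, makes up most of the collagen IV bar, 6 of 8 summits.

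CATATG or CACATG, sought on both strands within 50 bp of the summit, was found at 18 of 38 summits, against 28.2% of all IDR summits. Among the 23 nearest to the listed genes' own starts it was at 13, and among the 15 nearest to other genes at 5. All 8 summits at ranks up to 1000 held one, against 40.6% of the first 1000 IDR summits. These 8 lay over 500 bp from a coding start, while the 40.6% covers summits at any distance. The limit of 1000 was set after the ranks were seen. By class the counts among summits nearest to own starts were 7 of 11 for laminins, 2 of 2 for collagen IV, 4 of 7 for nidogen and perlecan and 0 of 3 for the proteases, whose summits are too few and too low in rank for a contrast. With a T added after the site, CATATGT or CACATGT, which contain the shorter forms, the count was 15 of 38, against 16.9%. This longer form was chosen after the sequences were seen.

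The distance from summit to site varied. At LanB1, LanA, LanB2 and trol the nearest CACATG or CATATG lay 5, 9, 19 and 12 bp from the summit of the strongest peak, while in wb the single CATATG lay 42 bp away. Any CANNTG was at 26 of 38 summits, against 57.2% of all. By type, CACATG was at 12 of 38, against 18.9% of all IDR summits, and CATATG at 9, against 11.6%. CAGATG was at 7, against 10.3%, CAAGTG at 6, against 7.95%, and CAGCTG at 3, against 7.03%. CAGGTG was at 0 of 38, against 2.73% of all, a share so low that 0 in 38 says little. GATAAG, a form bound by GATA factors such as Serpent of the haemocytes and fat body, was at 1 of 38, past the end of Mmp2, against 5.23% of all. These are matches of letters in a window, not tested sites.

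The replicates held nearly all of the same summits, and most ranked nearer the top in replicate 2. Both replicates held 36 of 38 summits within 100 bp, the exceptions being the CG12909 and CG33228 promoter summits, and these replicate summits lay at most 77 bp away, with a median of 10 bp. The IDR list was derived from these libraries, so this describes the list. Of all 6516 IDR summits, 4008 over 500 bp from a coding start and 2210 within 500 bp were ranked in both replicates. The share at the listed genes is near that of the whole list and not particular to them. All 8 summits of the first 1000, each over 500 bp from a coding start, stood nearer the top in replicate 2 than in replicate 1. So did 20 of the 23 nearest to own starts and 7 of 13 nearest to other genes. Shares of the whole list were computed only by distance from a coding start. At the listed genes, 6 of 10 summits within 500 bp of a coding start stood nearer the top in replicate 2, against 30.7% of such summits in the whole IDR list. Of summits farther from a coding start 21 of 26 did, against 60.1%.

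**Figure D4:**
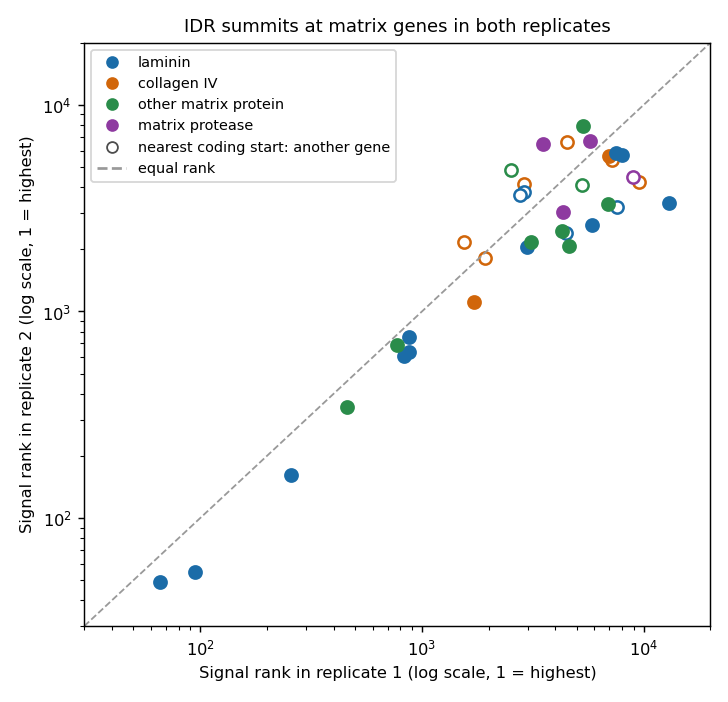
Signal rank in replicate 1 (x) and replicate 2 (y), both on log scales with 1 the highest, for the 36 summits found in both. Open circles have their nearest coding start in a gene outside the list. The points below the dashed line of equal rank, nearer the top in replicate 2, include all 8 of the first 1000 IDR peaks. These lay over 500 bp from a coding start, where 60.1% of summits in the whole IDR list stood nearer the top in replicate 2.

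Of 29 other genes of the basement membrane, named in 4 lists by role, 24 had an IDR summit in the body or within 10 kb. In the body 17 had one. The shares of all protein-coding genes were 63.7% in the window and 13.2% in the body, and the counts of each list below are to be read against these. Among 8 other matrix proteins 7 had one in the window, all but prc, a collagen-like protein of the heart. The strongest was 654 bp upstream of Ppn, which encodes the matrix glycoprotein papilin, at rank 116 (145 in replicate 1 and 96 in replicate 2). Those of Pxn (1224), which encodes peroxidasin, and Mp (1310), which encodes a collagen related to types of vertebrate basement membranes, were nearer to starts of MEP-1 and bin. Among 5 genes of collagen processing and secretion 3 had one. The strongest in the window of Tango1, a collagen export factor, ranked 338 and was nearer to CG31635. Plod, a lysyl hydroxylase, had an intron summit at rank 1480, 1752 bp downstream of its start, and the intron summit of PH4alphaEFB, a prolyl hydroxylase subunit, ranked 3417 but was nearer to the start of spdo, at 1788 bp, than to its own, at 8846 bp. Loxl1 and Loxl2, lysyl oxidases that crosslink collagen, had none.

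Of 5 further proteases and protease inhibitors 4 had a summit in the window and 1, Reck, in the body, at rank 1717. The peak at rank 10 in the window of stl, an ADAMTS family protease, was nearest to CycB, and that of AdamTS-B at rank 2657 was nearest to CG3149, while AdamTS-A had none. Among 11 receptors of the matrix 9 had one in the body and 10 in the window, all but Itgbn, an integrin beta chain. Several of these genes are over 20 kb, where 54.1% of protein-coding genes had one in the body and 75.5% in the window. The strongest receptor peak was 1184 bp upstream of kon, a transmembrane proteoglycan of muscle, at rank 195 (202 in both replicates). The alpha integrin gene if had an intron peak at rank 320 (472 in replicate 1 and 213 in replicate 2), and scb, also an alpha integrin, one 143 bp upstream of a start at rank 917.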

How the data were processed

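Chromatin from embryos of 1 group was sequenced as 2 biological replicates, numbered as in the labels, which give a fragment size range of 200 to 800 without a unit. The deposited narrowPeak lists are in dm6 coordinates, per the labels. According to the records the authors deposited with them, each replicate list came from that replicate's alignments and 1 common control, the pooled list from both alignments and that control, and the IDR list from the other 3. Aligner and peak caller are not given in the sources used. The signal deposited for each peak is on an unstated scale, so it served for ranking alone. The −log10 q-value that the authors deposited was tied at its ceiling for 100% of IDR peaks and served no result. Depth is unknown.

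Summits (start plus offset) were compared with the Ensembl 115 annotation of Release 6 without transposable elements, and no peak ran past a chromosome end. All 10 genes matched by symbol. The other 29 genes matched too, 1 by a synonym. Summits were matched within 100 bp, promoters were within 500 bp of a start, and motifs were sought in 101 bp. Counting code was tested on planted summits and motifs. Python 3.11.15, numpy 2.4.6, pandas 2.3.3 and matplotlib 3.10.9 were used.

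The genes and lists were chosen with earlier results of these data known. All 10 genes are named, as is the coding gene with the nearest start where it is another. Of each other list, the 3 genes with the strongest peak and those without any are named. Non-coding genes with a nearer start are not named. No test was made, since there is 1 group. Alternatives were other windows, nearest coding starts, interval overlap, the 3258 IDR peaks with the highest signal, other distances, and each replicate left out. With a replicate left out, the 6516 highest peaks of the other took the place of the IDR list.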

Additional observations from a re-analysis of the deposited data

How the results depend on the processing

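Of 102 recomputed summary counts, 76 stayed within 1.5 times the reported value, as did 122 of 150 counts and ranks of single genes. Distinct summits at the 10 genes numbered 24 with windows of 1 kb and 20 in the gene body alone, against 38 as reported. They numbered 23 by nearest annotated start of a coding gene, meant by nearest start below, and 18 among the 3258 IDR peaks with the highest signal. The mean per gene, in which a summit shared by Col4a1 and vkg counts for each, was 2.4, 2, 2.3 and 1.9, against 4. Laminins had 9 in the gene body and 9 among those strongest peaks, nidogen and perlecan 6 and 6, and proteases 3 and 0, with 3 by nearest start. The collagen IV pair had 4 with windows of 5 kb, 2 with 1 kb, in the body or by nearest start, and 3 among the strongest. Summits found in both replicates numbered 20 in the body, 23 by nearest start and 17 among the strongest. Summits within 500 bp of a start were 0 among the strongest and 5 when starts within 1000 bp were counted. With 1 replicate left out the collagen IV count was 5 to 7, against 8, and Mmp1 lost its 1 summit without either replicate. Without replicate 2 the counts were 3 for wb, against 6, 2 for LanB2, against 1, and 3 each for Col4a1 and vkg, against 5. The cause of the changes without a replicate was not tested, while the others follow from the counting rule, the window or the number of peaks. With the first 500 or 2000 peaks in place of 1000, 4 or 7 genes had one in the body, against 6. With 500 to 2000 or 5000 bp downstream in place of 3000, 5 or 8 genes had a summit there, against 7. All these limits were chosen after the data were seen. Matching in both replicates could not be recomputed without a replicate. No paired analysis was possible because there was 1 group.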
